A study of Homo sapiens with 28 samples.

Results

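PTN, which encodes pleiotrophin, and NTF3, which encodes neurotrophin-3, were the 2 of 19817 protein-coding genes whose RNA stood higher in every wild-type (WT) library of day 4 than in every WT library of undifferentiated embryonic stem (ES) cells and of day 8 by the margin set here. Levels are TPM, abundance scaled for transcript length and library total, so they can be compared between genes. A gene was chosen when the lowest TPM + 1 of the 6 WT day 4 libraries was at least 6 and at least 1.5 times the highest TPM + 1 of the 2 WT ES and 6 WT day 8 libraries. In SOX1-/- (KO) cells, whose libraries the choice did not use, PTN and NTF3 both rose by day 4 and fell again by day 8.

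Both genes encode secreted signalling proteins. Pleiotrophin is a heparin-binding growth factor with a single close relative, midkine (MDK). It binds the receptor phosphatase PTPRZ1 and cell-surface proteoglycans such as syndecan-3, and in the developing brain it is known for promoting neurite outgrowth and the growth of progenitors. Neurotrophin-3 belongs to the neurotrophin family of growth factors and signals through the receptor kinase TrkC, encoded by NTRK3, with the p75 receptor NGFR as a further receptor. It is known for supporting early neurons, proprioceptive sensory neurons among them.

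The cells were H9, an established line of human ES cells, sequenced as ES cells and as neural progenitor cells derived from them. Poly(A) RNA was measured in KO cells, which lack the neural transcription factor SOX1, and in WT cells, as ES cells and on days 4 and 8 of differentiation. On each day the cells carried 1 of 3 culture labels. The first, IWP2, is the name of a known inhibitor of WNT secretion. The others, CT0.4 and CT1.0, are not spelled out in the labels and their number has no unit. Each of the 14 groups of genotype, day and label had 2 libraries, numbered 26 and 48 in KO and 1 and 2 in WT. Whether a number marks the same line across groups is not stated in the labels. Nothing in the labels says that these came from separate cultures, so p-values measure only the spread between these libraries, which may be technical. With PTN and NTF3 chosen from WT values, the tests below were fitted to the 14 KO libraries alone, and WT values are a description.

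SOX1 itself was listed at 0.0238 to 3.08 TPM in the 14 KO libraries. In the WT libraries it reached 84.1 and 98.0 TPM at day 4 of CT1.0 and 72.1 and 79.4 TPM at day 8 of CT1.0, while under IWP2 at day 4 it was 0.410 and 1.14 TPM in KO and 0.907 and 0.990 TPM in WT. The 4 WT libraries of CT0.4 and CT1.0 at day 4 stood apart, with 17694 to 18233 genes at 1 TPM or more, against 18876 to 20338 in the other 24 libraries. They are among the libraries that chose PTN and NTF3, and the KO tests below do not use them. The number of reads behind each library is unknown from TPM, so no counting error is given.

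PTN (ENSG00000105894.11) lies on the minus strand of chromosome 7 at chr7:137227341-137343865 of GRCh38 in GENCODE 29, and NTF3 (ENSG00000185652.11) on the plus strand of chromosome 12 at chr12:5432112-5521536. A snoRNA gene listed at 0 TPM and a lincRNA on the opposite strand, AC078842.2, whose highest value was 1.87 TPM, lie within PTN, and no other annotated gene overlaps NTF3. The promoters are shown as a description, since both genes were chosen for the same course in time and their moving together is no finding. Each runs from 250 bases before to 50 bases after a start in RefSeq (GRCh38.p14), 5′ to 3′ on the gene's strand, for PTN at chr7:137343684-137343983 and for the NTF3 starts at chr12:5431858-5432157 and chr12:5493882-5494181. Capitals mark letters that match a searched motif on either strand.
PTN: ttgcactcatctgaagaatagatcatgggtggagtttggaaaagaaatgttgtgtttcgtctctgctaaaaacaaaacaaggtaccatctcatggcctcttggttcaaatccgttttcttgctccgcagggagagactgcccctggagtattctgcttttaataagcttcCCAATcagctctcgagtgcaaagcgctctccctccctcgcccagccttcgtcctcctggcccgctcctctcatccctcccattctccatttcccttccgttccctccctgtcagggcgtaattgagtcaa
NTF3, upstream start: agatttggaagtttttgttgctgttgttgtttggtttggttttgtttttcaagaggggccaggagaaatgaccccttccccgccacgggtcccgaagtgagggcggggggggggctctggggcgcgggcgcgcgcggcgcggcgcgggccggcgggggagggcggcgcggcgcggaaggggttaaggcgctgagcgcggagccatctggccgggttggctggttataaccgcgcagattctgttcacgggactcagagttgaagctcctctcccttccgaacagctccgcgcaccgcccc
NTF3, downstream start: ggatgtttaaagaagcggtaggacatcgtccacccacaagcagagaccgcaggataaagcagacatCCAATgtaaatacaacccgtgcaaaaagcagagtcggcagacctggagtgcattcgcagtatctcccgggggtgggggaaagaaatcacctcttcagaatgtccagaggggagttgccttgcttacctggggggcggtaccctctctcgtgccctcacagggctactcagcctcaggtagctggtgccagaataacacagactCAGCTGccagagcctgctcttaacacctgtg
Searched on both strands, with no overlap between matches, were the CCAAT box (letters CCAAT), the TATA box (letters TATAAA), the E-boxes CACGTG and, as a variant, CAGCTG, the core bound by SOX factors (letters ACAAT) and the core bound by homeodomain factors (letters TAATTA). The CCAAT box was found at 80 bases before the PTN start and at 184 bases before the downstream NTF3 start, and 34.6% of the 35116 RefSeq promoters of the same length hold it. The E-box CAGCTG was found in the downstream NTF3 promoter, as in 17.9% of promoters. The TATA box, held by 11.5% of promoters, the E-box CACGTG, held by 7.26%, the SOX core, held by 27.4%, and the homeodomain core, held by 4.84%, were not in these windows, and the upstream NTF3 window held no match. GC content was 50.3% for PTN, 66.0% for the upstream NTF3 start and 54.7% for the downstream one, against a median of 58.7% over all promoters.

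The choice rested on narrow margins, which are given as a description. For PTN the lowest WT day 4 TPM + 1 was 663, in CT1.0 library 2, against 386 in IWP2 library 2 of day 8, a ratio of 1.72. For NTF3 the lowest WT day 4 TPM + 1 was 23.1, in CT1.0 library 1, against 14.9 in IWP2 library 2 of day 8, a ratio of 1.56. Genes just outside included LRP4, an agrin co-receptor, at a ratio of 1.30, and HRH3, a histamine receptor, at 1.25. Both were above the floor of 6 in WT. After median-ratio scaling of the libraries the number of genes chosen was 5, with HRH3, LRP4 and the transcription factor gene PAX2 added to PTN and NTF3.

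**Figure D1:**
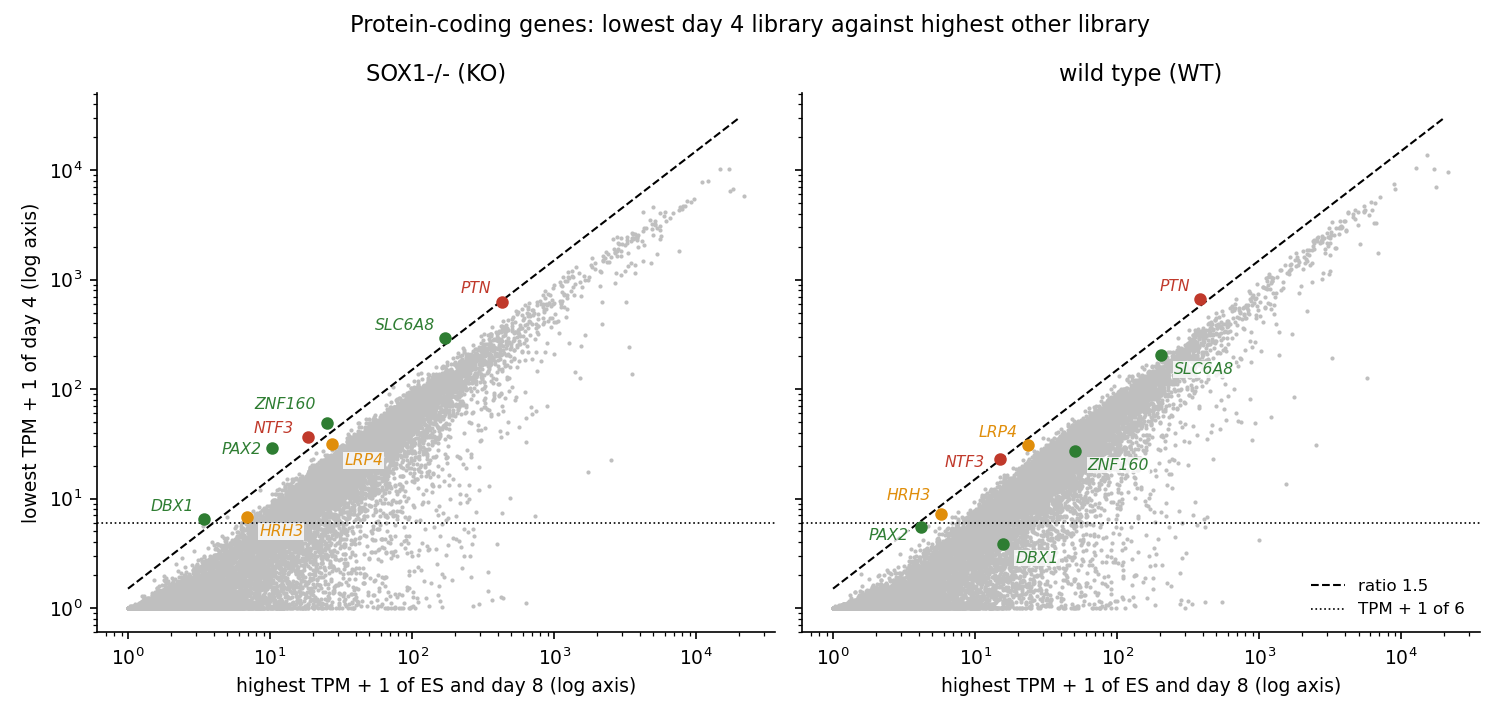
The lowest TPM + 1 of the 6 day 4 libraries (vertical, log axis) is plotted against the highest TPM + 1 of the 8 ES and day 8 libraries (horizontal, log axis) for each protein-coding gene, in KO (left) and WT (right). Red points are PTN and NTF3, orange LRP4 and HRH3, just outside the rule in WT, and green the genes that met the rule in KO only, the dashed line is a ratio of 1.5 and the dotted line the floor of 6. PTN lies just under the dashed line in KO, at 1.47, and above it in WT, at 1.72.

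PTN was an abundant RNA at day 4 in both genotypes. In KO cells it stood at 43.4 and 46.9 TPM in ES cells. At day 4 KO cells had 1009.9 and 877 TPM under IWP2, 751 and 629 TPM under CT0.4, and 832 and 792 TPM under CT1.0. At day 8 KO cells had 428 and 289 TPM under IWP2, 144 and 135 TPM under CT0.4, and 333 and 335 TPM under CT1.0. All 6 KO day 4 libraries were above all 6 KO day 8 libraries, and these were above both KO ES libraries. The share of all genes ordered in this way was not counted. In WT cells PTN stood at 43.0 and 46.3 TPM in ES cells. At day 4 WT cells had 877 and 839 TPM under IWP2, 846 and 771 TPM under CT0.4, and 871 and 662 TPM under CT1.0. At day 8 WT cells had 308 and 385 TPM under IWP2, 141 and 127 TPM under CT0.4, and 206 and 182 TPM under CT1.0. PTN was ordered by day in the same way in both genotypes, but in WT the choice itself placed day 4 highest. Within day 8 PTN was lowest under CT0.4 in both.

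NTF3 was far less abundant and followed the same order of days, in WT with day 4 highest by the choice itself. In KO cells it stood at 4.00 and 0.565 TPM in ES cells, a wide spread between the libraries at low values. At day 4 KO cells had 40.3 and 41.3 TPM under IWP2, 49.3 and 50.4 TPM under CT0.4, and 49.8 and 35.3 TPM under CT1.0. At day 8 KO cells had 14.4 and 17.5 TPM under IWP2, 7.53 and 9.22 TPM under CT0.4, and 14.6 and 11.8 TPM under CT1.0. The KO day 4, day 8 and ES libraries did not overlap, and the share of all genes with such a separation was not counted. In WT cells NTF3 stood at 3.19 and 3.42 TPM in ES cells. At day 4 WT cells had 47.0 and 48.6 TPM under IWP2, 34.0 and 30.6 TPM under CT0.4, and 22.1 and 23.4 TPM under CT1.0. At day 8 WT cells had 12.5 and 13.9 TPM under IWP2, 12.5 and 10.8 TPM under CT0.4, and 2.41 and 8.02 TPM under CT1.0. The lower of the WT CT1.0 values at day 8 was below both WT ES values, the one WT overlap between day 8 and ES cells.

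**Figure D2:**
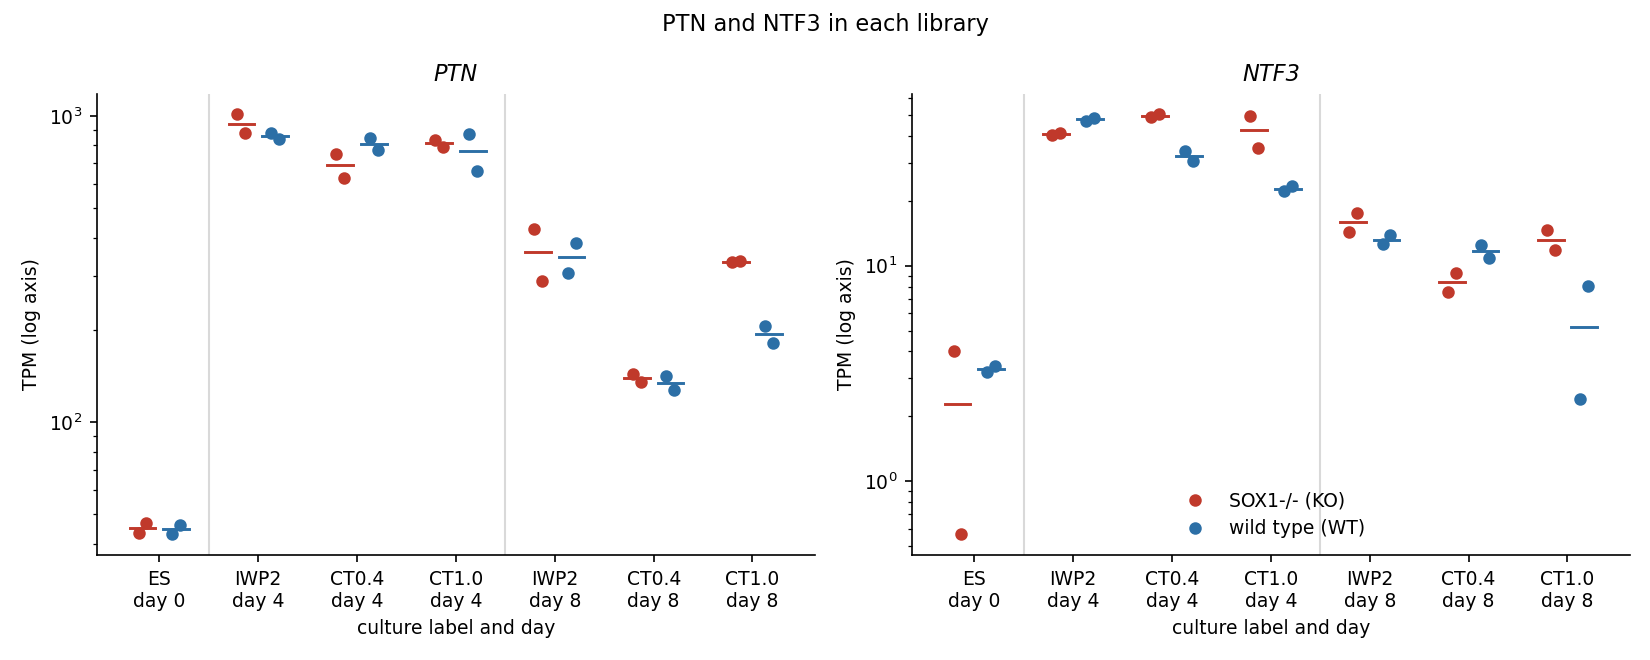
TPM of PTN (left) and NTF3 (right) on log axes in each of the 28 libraries, by culture label and day, with KO in red and WT in blue. Points are libraries and bars are means of 2 libraries. Every day 4 point lies above every day 8 point for both genes, which within WT was fixed by the choice. For NTF3 the KO points of CT0.4 and CT1.0 at day 4 lie above the WT points.

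Among the 19817 protein-coding genes, ordered by mean TPM within a group, PTN ranked between 132 and 161 from the top in the day 4 groups of both genotypes. Its rank was 3406 in KO ES cells and 3308 in WT ES cells, and between 263 and 1012 in the day 8 groups. NTF3 ranked between 3057 and 5374 in the day 4 groups, between 7968 and 10699 in the day 8 groups, and at 12348 in KO ES cells and 11812 in WT ES cells. At its peak NTF3 was therefore a mid-level RNA, while PTN was near the top of the list.

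Ordered by mean, the groups of PTN began with KO IWP2 at day 4 at 943 ± 94.3 TPM, WT IWP2 at day 4 at 858 ± 27.3 TPM, and KO CT1.0 at day 4 at 812 ± 28.6 TPM (SD, n = 2 for each group here and below). WT CT0.4 at 809 ± 53.4 TPM, WT CT1.0 at 767 ± 148 TPM and KO CT0.4 at 690 ± 86.4 TPM completed day 4. Neighbours within day 4 overlapped in their libraries except WT IWP2 and KO CT1.0. The day 8 groups ran from KO IWP2 at 359 ± 98.2 TPM through WT IWP2 at 346 ± 54.2 TPM to KO CT1.0 at 334 ± 1.27 TPM, all overlapping their neighbour. Below a gap came WT CT1.0 at 194 ± 17.1 TPM, then KO CT0.4 at 139.5 ± 5.94 TPM and WT CT0.4 at 134 ± 9.94 TPM, of which the CT0.4 groups overlapped. KO ES cells at 45.2 ± 2.46 TPM and WT ES cells at 44.7 ± 2.33 TPM overlapped at the bottom.

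For NTF3 the order began with KO CT0.4 at day 4 at 49.8 ± 0.786 TPM, WT IWP2 at 47.8 ± 1.15 TPM, KO CT1.0 at 42.5 ± 10.3 TPM and KO IWP2 at 40.8 ± 0.711 TPM. WT CT0.4 at 32.3 ± 2.39 TPM and WT CT1.0 at 22.8 ± 0.885 TPM ended day 4, each apart from its neighbours. KO CT1.0 overlapped the groups on both sides of it. Day 8 began with KO IWP2 at 15.9 ± 2.18 TPM, apart from WT IWP2 at 13.2 ± 0.943 TPM. KO CT1.0 at 13.2 ± 2.00 TPM and WT CT0.4 at 11.7 ± 1.20 TPM followed, each overlapping the group above it. KO CT0.4 at 8.37 ± 1.19 TPM, WT CT1.0 at 5.22 ± 3.96 TPM, WT ES cells at 3.31 ± 0.162 TPM and KO ES cells at 2.28 ± 2.43 TPM formed a tail in which each group overlapped the next.

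In KO cells both genes rose by day 4. PTN was higher by 4.13 (SE 0.134) on the log2(TPM + 1) scale in the mean of the 3 day 4 groups than in ES cells, with an adjusted p of 2.17e-07 in limma over 27912 genes. NTF3 was higher by 4.01 (SE 0.357), with an adjusted p of 4.03e-05 in limma. All 6 day 4 libraries were above both ES libraries for each gene, a separation not counted over all tested genes. A gene is called changed here at an adjusted p below 0.05, and 21.1% of tested genes were called higher in the same comparison, so the call alone does not set PTN and NTF3 apart. Their size did place them high among all genes, PTN at 31 and NTF3 at 35 from the top by log2 difference, with a median of 0.14 over all genes tested. Without the KO libraries numbered 48 the rise of NTF3 was 3.24, and without those numbered 26 it was 4.78. In bulk RNA of this kind, a change in the share of cells of a type and a change in RNA per cell cannot be told apart.

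The rise held within each culture label in KO cells. PTN was higher at day 4 than in ES cells by 4.35 under IWP2, by 3.90 under CT0.4 and by 4.14 under CT1.0 on the log2(TPM + 1) scale, with adjusted p of 9.21e-07, 1.35e-06 and 1.17e-06 in limma. NTF3 was higher by 3.90, 4.18 and 3.94 under IWP2, CT0.4 and CT1.0, with adjusted p of 0.000233, 0.000144 and 0.000194 in limma. The share of tested genes called higher was 17.2% under IWP2, 17.2% under CT0.4 and 18.1% under CT1.0. In linear terms PTN at day 4 was 13.4 to 23.3 times its ES level over the 6 KO libraries and 14.3 to 20.4 times over the 6 WT libraries, taking each library against the ES library of the same number. NTF3 at day 4 was 10.1 to 89.1 times its ES level in KO, the upper end coming from number 48 with 0.565 TPM in ES cells, and 6.84 to 14.7 times in WT.

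By day 8 both genes fell in KO cells. PTN fell by 1.66 (SE 0.0949) from the mean of the 3 day 4 groups on the log2(TPM + 1) scale, with an adjusted p of 1.75e-05 in limma, and NTF3 fell by 1.79 (SE 0.252), with an adjusted p of 0.00132 in limma. Of all tested genes, 8.57% were called lower in this comparison, and the median log2 difference was 0.015. From the lowest log2 difference upward, NTF3 was at place 90 and PTN at place 124 of 27912. Neither gene returned to its ES level in any KO library of day 8.

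Within labels the fall of PTN was called in all 3 and that of NTF3 in CT0.4 only. The difference of day 8 minus day 4 for PTN was -1.42 under IWP2, -2.29 under CT0.4 and -1.28 under CT1.0 on the log2(TPM + 1) scale, with adjusted p of 0.00241, 4.52e-05 and 0.00400 in limma. NTF3 fell by 2.45 under CT0.4, with an adjusted p of 0.00509 in limma. Its differences under IWP2, -1.31 (95% interval -2.30 to -0.32), and CT1.0, -1.60 (95% interval -2.60 to -0.61), did not pass, with adjusted p of 0.127 and 0.0634 in limma. The shares of tested genes called lower were 1.56% under IWP2, 5.57% under CT0.4 and 4.47% under CT1.0. Both libraries were lower at day 8 than both at day 4 in each label for each gene. The share of all tested genes with such a separation was not counted, so it lends the falls no support.

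**Figure D3:**
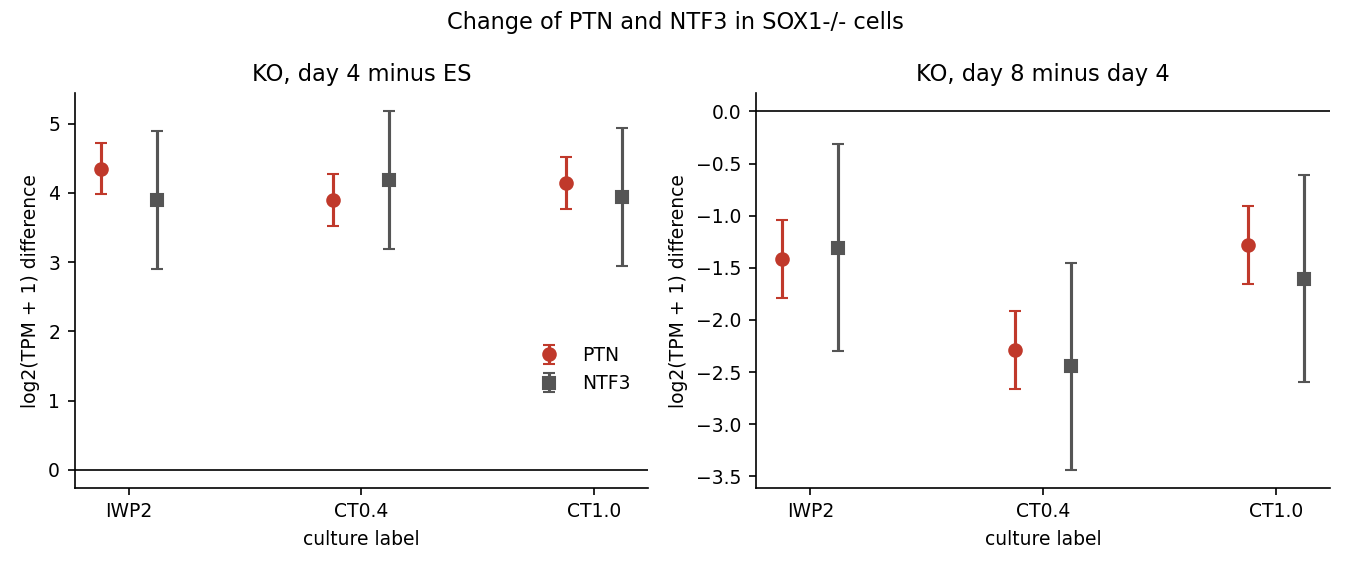
Differences of PTN (red circles) and NTF3 (grey squares) on the log2(TPM + 1) scale in KO cells, day 4 minus ES (left) and day 8 minus day 4 (right), by culture label, with 95% intervals from limma. For both genes the largest falls by day 8 are under CT0.4, at -2.29 for PTN and -2.45 for NTF3.

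The share of the day 4 level that remained at day 8 varied between labels. In KO cells PTN at day 8 stood at 33.0% to 42.4% of the day 4 level of the library with the same number under IWP2, at 19.1% to 21.5% under CT0.4 and at 40.0% to 42.3% under CT1.0. NTF3 stood at 35.7% to 42.3%, 15.3% to 18.3% and 29.3% to 33.4% of its day 4 level under the same labels in KO. The CT0.4 libraries were the lowest for both genes, with no overlap, a separation not counted over all genes. The test of the difference in fall between labels, CT0.4 minus IWP2 in KO, gave -0.88 (95% interval -1.40 to -0.35) for PTN with an adjusted p of 0.0608 in limma, and -1.14 (95% interval -2.54 to 0.27) for NTF3 with an adjusted p of 0.360 in limma. Of all tested genes 3.96% were called higher and 2.86% lower in this difference. Whether the numbers pair the libraries is not settled, and the main fit did not take them to. With a replicate block in the same KO libraries the difference of PTN passed (adjusted p = 0.0393 in limma). Under 7 alternatives it did not pass, and over the 10 settings it ran from -1.14 to -0.61. For CT1.0 minus IWP2 the difference in fall was 0.14 (95% interval -0.39 to 0.66) for PTN and -0.30 (95% interval -1.70 to 1.11) for NTF3, and neither passed, with adjusted p of 0.845 and 0.884 in limma, beside 0.476% of tested genes called higher and 1.51% lower. In WT cells PTN at day 8 stood at 35.1% to 45.8% of day 4 under IWP2, 16.5% to 16.7% under CT0.4 and 23.6% to 27.4% under CT1.0. NTF3 in WT stood at 26.7% to 28.6%, 35.4% to 36.9% and 10.9% to 34.3%, so that CT0.4 was not its lowest label there.

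At day 4 no difference between labels passed the test in KO cells. For PTN the difference was -0.45 (95% interval -0.83 to -0.08) for CT0.4 against IWP2, -0.21 (95% interval -0.59 to 0.16) for CT1.0 against IWP2 and 0.24 (95% interval -0.13 to 0.61) for CT1.0 against CT0.4. The adjusted p in limma was 0.238, 0.496 and 0.612 in that order, and none passed. Of all tested genes 1.32% were called higher and 1.31% lower in CT0.4 against IWP2, 3.5% and 5.49% in CT1.0 against IWP2, and 0.222% and 0.24% in CT1.0 against CT0.4. For NTF3 the differences were 0.28 (95% interval -0.71 to 1.28), 0.038 (95% interval -0.95 to 1.03) and -0.24 (95% interval -1.24 to 0.75), with adjusted p of 0.853, 1 and 0.905 in limma. These intervals leave room for changes of more than 1 log2 unit in NTF3 in each pair. As a description, NTF3 in WT was lower under both CT labels than under IWP2, with differences of -0.55 for CT0.4 and -1.04 for CT1.0 on the log2(TPM + 1) scale, while PTN differed by -0.087 and -0.18. Whether the label differences of NTF3 differ between the genotypes was not tested, since the WT day 4 values chose the gene.

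KO and WT cells are set side by side as a description. At day 4 under CT1.0 NTF3 averaged 42.5 ± 10.3 TPM in KO and 22.8 ± 0.885 TPM in WT, a ratio of 1.87, and under CT0.4 it averaged 49.8 ± 0.786 TPM in KO and 32.3 ± 2.39 TPM in WT, a ratio of 1.54. The KO libraries were above the WT libraries in both. Under IWP2 the order was the other way, with 40.8 ± 0.711 TPM in KO and 47.8 ± 1.15 TPM in WT, a ratio of 0.854. Libraries that do not overlap were common between these groups, with 41.1% of tested genes higher in KO without overlap under CT1.0, 33.7% higher under CT0.4 and 18% lower under IWP2. The 4 WT libraries that stood apart are the WT side of the CT comparisons at day 4. There the median KO minus WT difference over all tested genes was 0.13 for CT0.4 and 0.19 for CT1.0 on the log2(TPM + 1) scale. After median-ratio scaling it was 0 and 0.014, and the differences of NTF3 were 0.42 and 0.59, against 0.61 and 0.85 as deposited.

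At day 8 NTF3 was again higher in KO under CT1.0, at 13.2 ± 2.00 TPM in KO and 5.22 ± 3.96 TPM in WT, a ratio of 2.53, and under IWP2, with a ratio of 1.21. The CT1.0 ratio hung on the spread of the WT libraries, since the log2(TPM + 1) difference was 1.35, but 0.65 without WT library 1 and 2.05 without WT library 2. Under CT0.4 it was lower in KO, with a ratio of 0.716. None of these pairs overlapped, and the shares of tested genes without overlap in the same direction were 20.3% under CT1.0, 15% under IWP2 and 15.3% under CT0.4. PTN at day 8 under CT1.0 stood at 334 ± 1.27 TPM in KO and 194 ± 17.1 TPM in WT, a ratio of 1.72 without overlap, and the KO minus WT difference was 0.78 as deposited and 0.90 after scaling. At day 4 under CT0.4 PTN was lower in KO without overlap, with a ratio of 0.853, where 11% of tested genes were lower without overlap, and its log2(TPM + 1) difference was -0.23 as deposited and -0.43 after scaling. On the scaled values this was as large as the difference of NTF3 in the same groups, 0.42, in the other direction. Its other KO and WT groups overlapped, with ratios between 1.01 and 1.10. The sign of its small difference under CT1.0 at day 4 depended on scaling, at 0.096 as deposited and -0.17 scaled. In ES cells NTF3 overlapped between KO and WT, and its KO minus WT difference of -0.62 was -1.46 without KO number 26 and 0.22 without KO number 48.

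As a description, the mean change over labels was alike for PTN, with day 4 higher than ES by 4.13 in KO and 4.15 in WT, and a difference of day 8 minus day 4 of -1.66 in KO and -1.96 in WT, all on the log2(TPM + 1) scale. For NTF3 the rise was 4.01 in KO and 2.97 in WT, and the change to day 8 was -1.79 in KO and -1.76 in WT. The genotypes' changes were not tested against each other.

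Applied to the KO libraries, the rule that chose PTN and NTF3 was met by NTF3 and not by PTN. For NTF3 the lowest KO day 4 TPM + 1 was 36.3, against 18.5 as the highest of KO ES and day 8, a ratio of 1.96. For PTN these were 630 and 429, a ratio of 1.47, just under 1.5. The KO values behind the miss were CT0.4 number 48 at day 4 and IWP2 number 26 at day 8. After median-ratio scaling, or without either KO number, PTN met the rule in KO as well. Over the 15525 tested protein-coding genes 5 met the rule in KO, or 0.0322%, and 2 met it in WT, or 0.0129%. NTF3 was 1 of the 2 WT genes and 1 of the 5 KO genes.

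The other 4 genes that met the rule in KO were named after their values were seen. PAX2, a paired-box transcription factor, had a ratio of 2.83 in KO, ZNF160, a zinc finger protein, 1.94, DBX1, a homeobox factor of neural progenitors, 1.87, and SLC6A8, the creatine transporter, 1.72. Within a single label, PTN and NTF3 met the rule in KO in all 3. The ratio of PTN in KO was 2.04 within IWP2, 4.35 within CT0.4 and 2.36 within CT1.0, and that of NTF3 was 2.23, 4.92 and 2.32 in the same order. The rule within a label was met by 0.522% of tested protein-coding genes in IWP2, 1.39% in CT0.4 and 0.889% in CT1.0 in KO.

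Of 15 other tested genes that encode ligands and receptors of the pleiotrophin and neurotrophin pathways, 0 were called both higher at day 4 and lower at day 8 in KO cells in limma on the mean over labels, and 1, NGFR, was so at an unadjusted p below 0.05. Within CT0.4, the label with the lowest day 8 levels of PTN and NTF3 in KO, 2 of the 15 were called both ways, NGFR and NTRK3. The share of all tested genes called both ways was not counted, so these counts cannot be read as few or many. Each call alone was made for 17.2% (higher at day 4) and 5.57% (lower at day 8) of tested genes under CT0.4. The 15 were taken from a list of 9 and a list of 7 genes, drawn up after PTN and NTF3 were known. Of the 9 genes around pleiotrophin, 8 were tested, and by day 4 in KO 2 were called higher and 1 lower, against 21.1% higher and 17.7% lower over all tested genes. By day 8, 3 were called higher than at day 4 and 0 lower in limma, with 2, NCL and PTPRZ1, lower at an unadjusted p below 0.05. Over all tested genes 13.4% were called higher and 8.57% lower. MDK, the close relative of PTN, rose by 1.42 at day 4 (adjusted p = 1.58e-06 in limma) and was higher again by 0.32 at day 8 (adjusted p = 0.00198 in limma). The second step came from CT0.4, with a difference of 1.02, against -0.047 under IWP2 and -0.0076 under CT1.0. MDK averaged 492 TPM in KO ES cells, 1402, 1462 and 1109 TPM at day 4 under IWP2, CT0.4 and CT1.0, and 1358, 2957 and 1107 TPM at day 8 under the same labels. It was more abundant than PTN in each KO group, and under CT0.4 at day 8, where PTN was lowest among the differentiated KO groups, MDK was highest.

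Among the receptors, SDC3, syndecan-3, rose by 1.15 at day 4 (adjusted p = 0.000356 in limma). NCL, nucleolin, which can also bind pleiotrophin at the cell surface, fell by 0.94 (adjusted p = 6.97e-05 in limma). PTPRZ1 differed by -0.11 at day 4 and by -0.28 at day 8, and neither mean over labels passed, with adjusted p of 0.591 and 0.0800 in limma. By label its day 8 change ran in opposite directions, higher by 1.09 under IWP2 (adjusted p = 0.0107 in limma) and lower under CT0.4, at -1.72 (adjusted p = 0.000280 in limma). PTPRZ1 RNA was present throughout, at a mean of 144 TPM in KO ES cells, 121 to 166 TPM in the KO day 4 groups and 49.1 to 260 TPM in the KO day 8 groups. At day 8 the proteoglycan gene GPC2 was higher by 0.58 (adjusted p = 0.000950 in limma) and the receptor kinase gene ALK by 0.31 (adjusted p = 0.0419 in limma). ALK was at 1.10 TPM or less in every KO library, and its difference was 0.89 under CT0.4, 0.064 under IWP2 and -0.024 under CT1.0. LRP1, an endocytic receptor, was higher under CT0.4 by 0.55 (adjusted p = 0.00529 in limma) and lower under CT1.0, at -0.63 (adjusted p = 0.00868 in limma). SDC1, syndecan-1, was lower under CT0.4, at -0.85 (adjusted p = 0.0291 in limma). At day 8 under CT0.4, 4 of the 8 tested genes of this list were called higher and 2 lower, beside 12.1% and 5.57% of all tested genes.

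Of the 7 genes around neurotrophin-3, all were tested, and by day 4 in KO 3 were called higher and 2 lower, beside the 21.1% and 17.7% of all tested genes. The 3 that rose encode receptors. NTRK3, the receptor of neurotrophin-3, was higher by 1.07 (adjusted p = 9.04e-05 in limma), NGFR by 2.10 (adjusted p = 0.000447 in limma) and SORCS2, a sortilin-family receptor, by 1.89 (adjusted p = 0.000431 in limma). The ligand genes BDNF and NTF4 fell by 0.73 (adjusted p = 0.00570 in limma) and by 0.84 (adjusted p = 0.0266 in limma). The receptor genes NTRK2 and SORT1, at 0.98 and -0.26, did not pass on the mean over labels. Their adjusted p was 0.214 and 0.103 in limma. Under CT1.0 NTRK2 was higher by 2.05 (adjusted p = 0.0472 in limma) and SORT1 lower, at -0.71 (adjusted p = 0.00422 in limma). The 2 KO libraries of CT1.0 at day 4 lay far apart for NTRK2, at 0.677 TPM in number 26 and 9.76 TPM in number 48. NTRK3 averaged 7.71 TPM in KO ES cells and 15.2, 19.2 and 17.9 TPM at day 4 under IWP2, CT0.4 and CT1.0, so ligand and receptor RNA were both present at day 4.

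By day 8 in KO, 3 of these 7 genes were called higher than at day 4 and 0 lower in limma, with 1, NGFR, lower at an unadjusted p below 0.05, beside 13.4% higher and 8.57% lower over all tested genes. NTRK2 was higher by 1.35 (adjusted p = 0.0413 in limma), NTF4 by 1.19 (adjusted p = 0.00174 in limma) and SORT1, sortilin, by 0.31 (adjusted p = 0.0263 in limma). These means joined uneven labels. Under IWP2, CT0.4 and CT1.0 in that order NTRK2 differed by -0.23, 1.48 and 2.80. NTF4 differed by 0.82, 2.62 and 0.13, and SORT1 by 0.43, 0.57 and -0.079. NTRK3 differed by -0.08 on the mean over labels (adjusted p = 0.541 in limma), which joined a called rise under IWP2, by 0.56 (adjusted p = 0.0461 in limma), and a called fall under CT0.4, at -0.48 (adjusted p = 0.0393 in limma). NGFR also fell under CT0.4, at -1.42 (adjusted p = 0.0236 in limma). SORCS2 was higher under IWP2 by 1.90 (adjusted p = 0.0116 in limma). Under the CT labels SORCS2 ran the other way, at -0.87 under CT0.4 and -1.03 under CT1.0. Neither passed, with adjusted p of 0.0991 and 0.0905 in limma, after called rises by day 4 of 2.36 and 2.09. By label, 2 of the 7 genes were called higher and 2 lower under CT0.4, beside 12.1% and 5.57% of all tested genes. SORCS2 was lower there as well at an unadjusted p below 0.05 in limma. Under IWP2, 2 were higher and 0 lower in limma, with 0 lower at an unadjusted p below 0.05, beside 4.3% and 1.56% of all tested genes. Under CT1.0, 1 was higher and 0 lower in limma, with 2, NTRK3 and SORCS2, lower at an unadjusted p below 0.05, beside 2.78% and 4.47% of all tested genes. The median log2 difference of the list was 0.98 at day 4 and 0.020 at day 8, and that of the pleiotrophin list -0.029 and -0.038, against 0.14 and 0.015 over all tested genes.

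**Figure D4:**
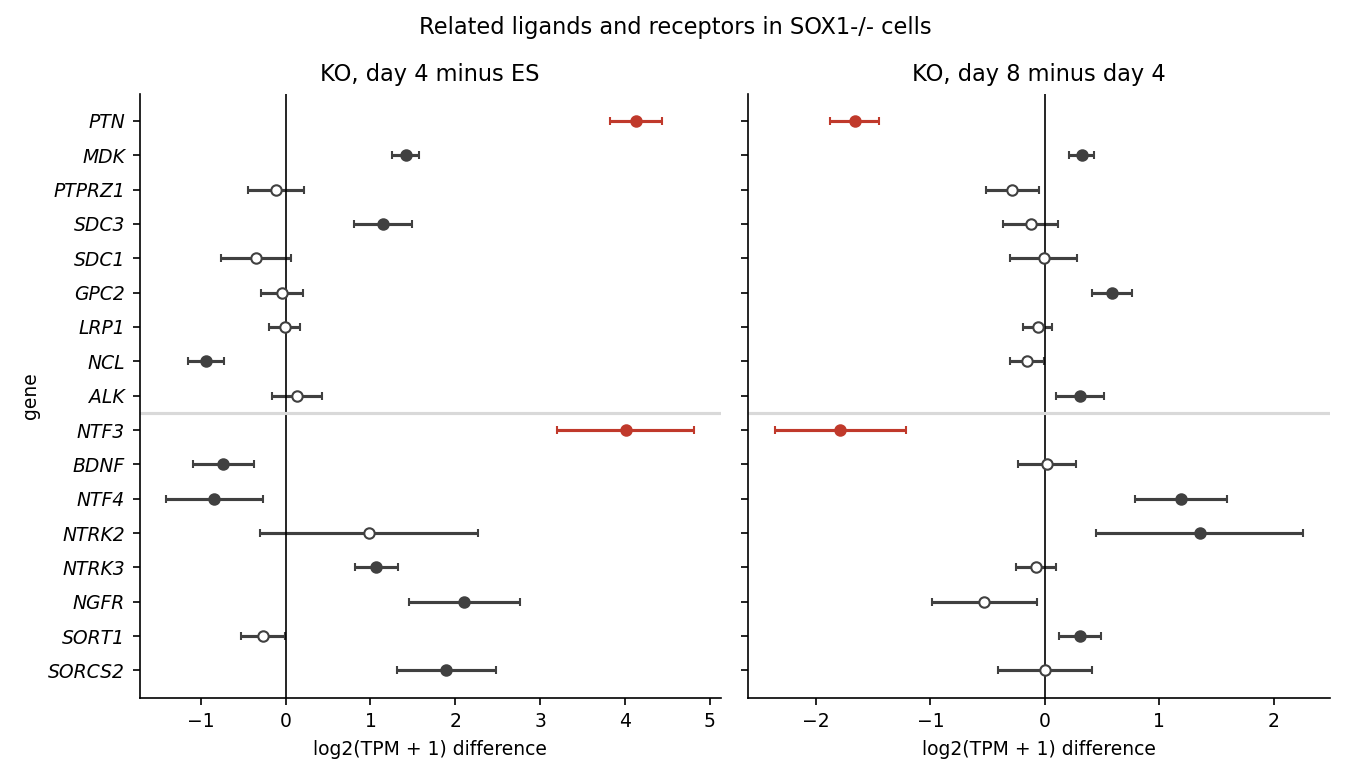
Differences on the log2(TPM + 1) scale in KO cells, day 4 minus ES (left) and day 8 minus day 4 (right), for PTN and NTF3 (red) and 15 related genes (grey), with 95% intervals from limma. Filled points were called at an adjusted p below 0.05. PTN and NTF3 lie farthest right at day 4 minus ES, at 4.13 and 4.01, and farthest left at day 8 minus day 4, at -1.66 and -1.79.

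The cells changed in type over the same days, by the summed TPM of marker genes. The 5 markers of undifferentiated ES cells summed to 3955 to 3989 TPM in KO ES cells, 786 to 1107 TPM at day 4 and 518 to 783 TPM at day 8. Most of the later sums was LIN28A, at 651 to 661, 609 to 918 and 435 to 653 TPM on these days. POU5F1 was at 2475 to 2532, 21.4 to 60.7 and 0.827 to 5.51 TPM. NANOG and TDGF1 were at 0.748 TPM or less in every KO library of days 4 and 8. The 5 neural progenitor markers, SOX1 among them, summed to 232 to 253 TPM, 597 to 1028 TPM and 529 to 1066 TPM on the same days in KO. In WT cells the progenitor markers summed to 273 to 298 TPM in ES cells, 816 to 1153 TPM at day 4 and 1040 to 1594 TPM at day 8. The 5 neuron markers summed to 129 to 148 TPM in KO ES cells, 86.2 to 137 TPM at day 4 and 135 to 348 TPM at day 8, and to 126 to 131, 116 to 155 and 275 to 737 TPM in WT. Most of the KO ES and day 4 sums was TUBB3, at 117 to 137 and 61.3 to 111 TPM. STMN2 went the other way in KO, at 8.88 to 9.42 and 13.3 to 24.7 TPM, as did DCX, at 1.66 to 1.74 and 2.11 to 5.76 TPM. ELAVL4 and NHLH1 were at 0.67 TPM or less in these KO libraries. In WT the ES and day 4 ranges of TUBB3, STMN2 and DCX overlapped. The ES and neural progenitor sums moved with the rise of PTN and NTF3, and their part in it was not tested.

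Markers of other cell types were lower or uneven. The 6 neural crest markers summed to 14.8 to 17.0 TPM in KO ES cells, 4.62 to 64.7 TPM at day 4 and 7.06 to 228 TPM at day 8, and to 12.8 to 17.3, 4.57 to 31.4 and 5.76 to 188 TPM in WT. This sum also joined uneven genes. At day 4 PAX3 was at 2.79 to 61.3 TPM in KO and 1.96 to 25.7 TPM in WT. SNAI2 was at 0.777 to 26.3 TPM in KO and 0.966 to 24.6 TPM in WT. SOX10, a defining crest factor, was at 0 to 0.979 TPM in KO and 0 to 0.180 TPM in WT at day 4. FOXD3, TFAP2A and TFAP2B were at 1.43 TPM or less at day 4 in both genotypes. At day 8 in KO, PAX3 reached 179 TPM, TFAP2B 23.9 TPM and SOX10 5.05 TPM. The 6 surface ectoderm markers summed to 598 to 618 TPM in KO ES cells, 119 to 159 TPM at day 4 and 76.7 to 368 TPM at day 8, and to 553 to 590, 99.4 to 136 and 43.8 to 352 TPM in WT. This sum joined genes with different courses. In KO EPCAM was at 154 to 163 TPM in ES cells and 1.31 to 5.46 TPM at day 8. TFAP2C was at 1.05 to 1.14 and 0.0294 to 52.4 TPM, and KRT19 at 77.5 to 81.0 and 12.6 to 110 TPM. The 4 of 5 mesendoderm markers that were matched summed to at most 4.17 TPM in any library.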

How the data were processed

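Poly(A) RNA of H9 cells was sequenced in 28 libraries, and the authors deposited gene-level TPM for 58219 genes. Per the submitters' processing notes, CASAVA 1.7, Salmon 0.8.2 and hg38 were used, with no role stated for any of them. No source used here names the annotation release, and GENCODE 29 held 55050 of the versioned IDs. Both a HiSeq2000 and an X-ten are named in the labels' protocols, but not per library, and a batch term was therefore not possible. TPM keeps no depth, so counting precision is unknown.

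Genes with at least 1 TPM in at least 2 of the 28 libraries were tested, 27912 in all, and PTN and NTF3 passed this filter. A linear model from limma 3.58.1 (R 4.3.3) was fitted to the 14 KO libraries on log2(TPM + 1), with 1 mean per group, an intensity trend, 7 residual and 1.77 prior degrees of freedom, and p adjusted after Benjamini and Hochberg over all tested genes within each comparison. Fold changes on this scale understate those of low genes. The script was tested on simulated data. WT libraries stayed out of this model because their values chose PTN and NTF3, and entered 2 kinds of alternative, the fit on all 28 libraries and the fits without a KO replicate. The rule for naming genes covered both, SOX1 and genes just outside. Some genes that the rule or the lists would name are not reported here, and the counts of the neurotrophin list leave them out. Both genes, the lists and the tests were chosen with earlier results of these data known. Alternatives were another pseudocount, scaling, filters, thresholds, a fit on all libraries, a replicate block and leaving out each replicate.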

Additional observations from a re-analysis of the deposited data

How the results depend on the processing

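The calls of PTN and NTF3 in KO day 4 against ES and in KO day 8 against day 4 were made under all 10 settings tried, the chosen one included. PTN differed by 3.99 to 4.27 and NTF3 by 3.24 to 4.78 on the log2 scale at day 4 against ES, and at day 8 against day 4 PTN differed by -1.71 to -1.64 and NTF3 by -1.90 to -1.68. The fit on all 28 libraries and those without a KO replicate take spread from the WT libraries that chose the genes, so their p-values lend no support. Over these settings the highest adjusted p in limma for NTF3 was 0.000496 for the rise and 0.00902 for the fall. Of all values recomputed, 334 kept their direction and side of the threshold or moved within the spread, 23 moved, 3 passed the threshold only under an alternative and 3 tested values changed sign. Of the 70 recomputed KO minus WT differences, which carry no test, 9 changed sign, all of them of PTN except NTF3 in ES cells. The cause was not tested except where the alternative itself removes samples or narrows the call.

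The number of genes chosen in WT was 2, and it was 5 after median-ratio scaling, 0 at a ratio of at least 2, 41 at a ratio of at least 1, and 194, 98 and 76 within IWP2, CT0.4 and CT1.0 alone, the last 4 settings having been chosen after seeing the data. PTN and NTF3 were among the genes chosen in each of these but the ratio of 2. Without either WT replicate the number was 3 each time, with LRP4 added without replicate 1. In KO 5 genes met the rule, 8 after scaling, 1 at a ratio of at least 2, and 11 to 16 without 1 KO replicate. Of PTN and NTF3, 1 met it in KO, 2 after scaling, 0 at a ratio of at least 2 and 2 without either KO replicate. Over all genes, KO day 4 against ES gave 5895 genes higher and 4931 lower, and 2465 higher and 2291 lower with an absolute log2 difference of at least 1. KO day 8 against day 4 gave 3730 higher and 2391 lower, and 725 and 387 with that limit. After scaling the first comparison gave 4914 higher and 5996 lower.

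Of the values that did not pass, 3 changed sign with 1 KO replicate left out. These were NTF3 in CT1.0 against IWP2 at day 4, at -0.22 without replicate 26 and 0.30 without replicate 48, NTF3 in CT1.0 against CT0.4 at day 4, at -0.50 and 0.016, and the difference in fall of PTN for CT1.0 minus IWP2, at 0.36 and -0.084.

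The KO replicate numbers 26 and 48 were checked for pairing by the correlation of their differences between groups. It ran from -0.063 to 0.20 over 21 pairs of groups, 7 of them over 0.1. Low correlations cannot show that pairing is absent, so this check does not settle it. SOX1 was lower in number 26 than in number 48 in each KO group, as at 0.410 and 1.14 TPM under IWP2 at day 4. The main tests were fitted without pairing, and the ratios between libraries of the same number are a description. With the number as a replicate block KO day 4 against ES gave 5947 genes higher and 5047 lower, and KO day 8 against day 4 gave 3807 higher and 2486 lower. The block and the fit on all 28 libraries brought the difference in fall of PTN for CT0.4 minus IWP2, -0.88, past the threshold, with adjusted p of 0.0393 and 0.0172 in limma, and the fit on all libraries did so for NTF3 in CT1.0 at day 8 against day 4, -1.60, at an adjusted p of 0.0158 in limma. The low TPM of NTF3 in ES cells limits the precision of its rise.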

Other observations

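Without the condition on gene type, a lincRNA gene, listed as RP11-82L7.4 in the deposited table (ENSG00000259223.2, chr15:60073554-60118320 on the minus strand in GENCODE 29, GRCh38), also met the rule in WT, with a ratio of 1.94. It was named after its values were seen. In KO cells it stood at 0.341 and 0 TPM in ES cells, 2.96 and 4.47 TPM at day 4 under IWP2, 29.1 and 28.4 TPM under CT0.4, and 24.9 and 13.9 TPM under CT1.0. At day 8 its KO values were all below 1 TPM. In WT cells it was listed at 0 in both ES libraries, and at day 4 it stood at 6.51 and 7.32 TPM under IWP2, 35.3 and 34.6 TPM under CT0.4, and 5.35 and 5.96 TPM under CT1.0. At day 8 its highest WT value was 2.28 TPM. In KO it had a ratio of 2.01 and missed only the floor, with a lowest day 4 TPM + 1 of 3.96. The CT0.4 libraries at day 4 were the highest in both genotypes.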
